A study of Mus musculus with 10 samples.

Results

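Klf2, Klf4 and Klf5 encode Krüppel-like transcription factors of mouse pluripotent cells, and the open chromatin around these genes was compared in 4 mouse cell types. A site belonged to a locus where it overlapped, by at least 1 bp, an interval on mouse build mm9: chr8:74822000-74866000 for Klf2, chr4:55460000-55565000 for Klf4 with its downstream side, or chr14:99680000-99735000 for Klf5. The intervals are 44, 105 and 55 kb long. They held 300 of the 1816946 sites of the 4 lists, with 62 at Klf2, 131 at Klf4 and 107 at Klf5. Of the 300 sites, 124 were in embryonic stem cells (ESC), 69 in epiblast stem cells (EpiSC), 74 in neural stem cells (NSC) and 33 in embryonic fibroblasts (MEF).

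Sites came from FAIRE-seq, in which DNA that stays in the aqueous phase after phenol extraction of crosslinked, sheared chromatin is sequenced, so that stretches poor in nucleosomes are enriched. ESC were E14 cells (ES-E14Tg2a) on gelatin in serum-free N2/B27 medium with 1 µM of the MEK inhibitor PD032590, 3 µM of the GSK3 inhibitor CH99021 and 1000 U/ml LIF. EpiSC were of the E3 line, kept on mitomycin C-treated MEF feeders in MEF-conditioned medium with 5 ng/ml FGF2, and moved with Dispase to fibronectin without feeders 2 days before crosslinking. NSC are labelled as neural progenitors derived from ES cells and grew in N2B27 with 10 ng/ml each of FGF2 and EGF. MEF came from E16.5 embryos and grew in DMEM with 10% FBS, and their source label names NSC chromatin although title and cell type name fibroblasts. Each cell type has 2 samples, and 1 list of sites, filed with replicate 2, was analysed for each; no source used here states whether the reads of both samples went into it. The depth behind the lists is unknown, differences between cell types could not be checked against replicates, and no test between them was possible. In such bulk samples, sites open in fewer cells and sites less open in each cell cannot be told apart.

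Krüppel-like factors carry zinc fingers at the C-terminus and bind GC-rich and CACCC-type elements. In mouse ES cells Klf2, Klf4 and Klf5 have overlapping roles in self-renewal: Klf4 is a target of LIF and STAT3 signalling and one of the original reprogramming factors, Klf2 is a factor of the ground state whose protein is destabilised by MEK and ERK signalling, and Klf5 is needed for the inner cell mass and trophectoderm. Expression of Klf2 and Klf4 is known to be low in EpiSC. Klf4 and Klf5 also act in epithelia, and Klf2 in endothelium and T cells. In the RefSeq annotation of GRCm38.p6 the genes span 2593 bp (Klf2), 5339 bp (Klf4) and 14722 bp (Klf5), so each interval is mostly flanking DNA. Their protein-coding neighbours there are Ap1m1 and Eps15l1 for Klf2, Rad23b and Actl7b for Klf4, and Pibf1 and Klf12 for Klf5. Gene bodies and exons were not placed on mm9, because no annotation of that build was used here, and sites are given by position alone.

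Promoter windows of RefSeq, from 250 bases before to 50 bases after the gene start, were matched by symbol for 2 of the 3 genes. They are shown because they hold elements of the kind that Krüppel-like factors themselves bind, and they are on GRCm38.p6, not on the build of the sites. Capitals mark every match to CCNCNCCC or its reverse complement GGGNGNGG, with overlapping matches joined.
Klf2, chr8:72318812-72319111, plus strand: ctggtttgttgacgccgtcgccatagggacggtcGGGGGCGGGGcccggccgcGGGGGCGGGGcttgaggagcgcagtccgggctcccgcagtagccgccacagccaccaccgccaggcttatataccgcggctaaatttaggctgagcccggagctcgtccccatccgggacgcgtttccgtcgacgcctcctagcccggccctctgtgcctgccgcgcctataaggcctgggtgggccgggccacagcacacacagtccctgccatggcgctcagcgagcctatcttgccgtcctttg
Klf4, chr4:55532426-55532725, minus strand: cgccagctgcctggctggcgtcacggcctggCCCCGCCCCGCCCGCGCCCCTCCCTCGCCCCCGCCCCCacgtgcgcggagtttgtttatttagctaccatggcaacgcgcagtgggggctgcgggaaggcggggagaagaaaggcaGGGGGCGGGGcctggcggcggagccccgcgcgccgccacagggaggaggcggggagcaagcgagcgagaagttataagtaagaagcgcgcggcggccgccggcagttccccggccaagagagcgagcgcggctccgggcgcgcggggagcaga
The Klf2 window holds 4 matches and the Klf4 window 9, overlapping ones counted singly. At least 1 match is present in 49.5% of the 32851 promoter windows of this length, more than 4 in 8.16% and more than 9 in 1.1%. The G and C content is 69.3% for Klf2 and 74.3% for Klf4, against a median of 52.7% over all windows. A match is a description of the letters and not a bound site.

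All 3 loci held more sites in ESC than in the other pluripotent cell type, and the somatic cell types differed from locus to locus. At Klf2 there were 28 sites in ESC and 17 in EpiSC, and 13 in NSC and 4 in MEF. At Klf4 there were 58 in ESC and 32 in EpiSC, and 25 in NSC and 16 in MEF. At Klf5 there were 38 in ESC and 20 in EpiSC, and 36 in NSC and 13 in MEF. The order ESC, EpiSC, NSC, MEF thus held for the number of sites at Klf2 and Klf4, while at Klf5 NSC stood beside ESC. Since lists differ in length, with 441855 sites in ESC and 387312 in EpiSC, and 555868 in NSC and 431911 in MEF, each number was also divided by the mean of windows of the same length tiled along the autosomes of the same list. This relative density was 3.46 in ESC at Klf2 (exact Poisson 95% interval 2.30 to 5.00), 3.02 at Klf4 (2.30 to 3.91) and 3.77 at Klf5 (2.67 to 5.17). In EpiSC it was 2.38 (1.39 to 3.82), 1.89 (1.29 to 2.67) and 2.25 (1.37 to 3.47) at the 3 loci in the same order. In NSC it was 1.28 (0.682 to 2.19), 1.04 (0.671 to 1.53) and 2.84 (1.99 to 3.93), and in MEF 0.512 (0.140 to 1.31), 0.863 (0.493 to 1.40) and 1.33 (0.711 to 2.28). Intervals here and below cover counting error only and take neighbouring sites as independent, and the intervals of ESC and EpiSC overlap at each locus.

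**Figure D1:**
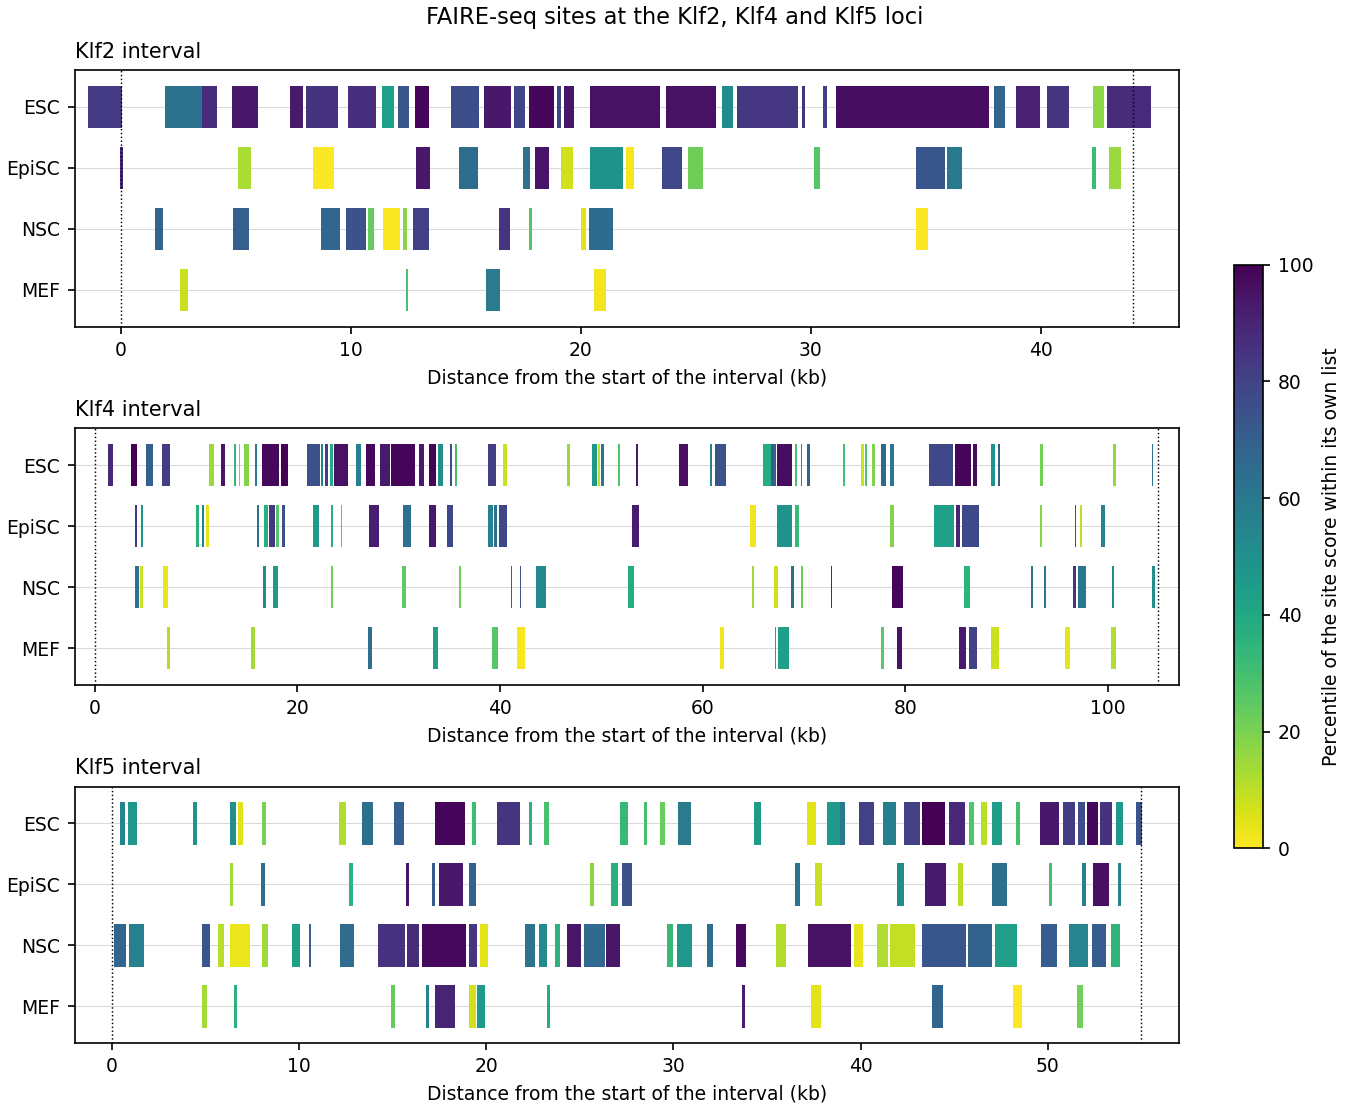
Sites of each cell type along the 3 intervals. The x axis is the distance from the start of the interval in kb, each row is a cell type, each block is a site drawn to scale, its colour is the percentile of its score within its own list, and dotted lines are the limits of the interval. ESC sites fill most of the Klf2 interval (73.4% of bases), and NSC sites most of the Klf5 interval (52.3%).

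The Klf2 interval was open along most of its length in ESC and in scattered pieces elsewhere. ESC sites covered 73.4% of its bases, EpiSC sites 23.9%, NSC sites 15.9% and MEF sites 3.55%, against 9.36%, 7.19%, 10.3% and 6.85% of the autosomes in the same order. Of the 54862 autosomal windows of this length, 0.0492% had as many bases covered in ESC and 4.47% in EpiSC, and 22.7% in NSC and 66.3% in MEF. By number of sites these shares were 2.58% for ESC, 8.16% for EpiSC, 34.4% for NSC and 77.2% for MEF, so the locus stood out more by covered bases than by the number of pieces. In all 9 bins of 5 kb ESC sites covered more bases than those of each other cell type. The bin chr8:74842000-74846999 was the most covered one in both pluripotent cell types, with 86.6% in ESC and 59.0% in EpiSC.

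The ESC sites at Klf2 were wide and closely packed. Their median width was 1023 bp, against 373 bp over the ESC list, and 14 of 28 were 1 kb or wider, against 10.2% of the list. In EpiSC 2 of 17 sites reached 1 kb (6.73% of the list did), in NSC 1 of 13 (6.71%) and in MEF 0 of 4 (3.33%). The widest ESC site, chr8:74853098-74859761, measured 6664 bp, and 40 sites of the whole ESC list were at least as wide. Inside it EpiSC had 2 sites with scores up to 4.40, NSC had 1 of 508 bp with a score of 1.31, and MEF had none. With gaps of up to 1 kb allowed, a limit set after the data were seen, 22 ESC sites joined into a stretch of 33.9 kb, chr8:74829351-74863237, of which 80.5% was covered. Of the 253171 such stretches in the ESC list, 25 were as long. The longest stretch at Klf2 measured 4.86 kb in EpiSC (5 sites), 4.69 kb in NSC (6 sites) and 0.626 kb in MEF (1 site).

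Scores, which the authors computed and whose unit is not given, ranked the Klf2 sites high in ESC and low in MEF. The median score was 7.62 in ESC, at percentile 85.4 of its list; it was 2.84 in EpiSC (percentile 49.0), 5.21 in NSC (65.5) and 1.94 in MEF (18.5), each on the scale of its own list. The 95th percentile, above which 5% of every list lies, was reached by 5 of 28 ESC sites and by none in the other lists. The first of them, chr8:74834778-74835422 (score 13.3, percentile 98.6), coincided with an EpiSC site at chr8:74834824-74835437 (7.87, percentile 94.1) and an NSC site at chr8:74834715-74835400 (7.25, percentile 80.6). The second, chr8:74839739-74840824 (12.7), held the EpiSC site of highest score, chr8:74840036-74840609 (8.09, percentile 94.7). The other three were the widest site (11.3), chr8:74842417-74845459 (10.6) and chr8:74845712-74847882 (10.5). The highest NSC site, chr8:74838454-74838948 (8.11, percentile 85.0), overlapped the highest MEF site, chr8:74837871-74838496 (3.76, percentile 58.7), and ESC were open there as well, whereas EpiSC had no site. The third EpiSC site by score crosses the lower limit, chr8:74821969-74822121 (6.27, percentile 88.2), and the third NSC site was chr8:74831794-74832654 (6.24, percentile 74.4). The next MEF sites by score, chr8:74834396-74834493 (2.25, percentile 28.6) and chr8:74824591-74824912 (1.64, percentile 8.44), ranked low in their list.

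Sites of the 4 lists at Klf2, with any sites beyond the limits that overlap them, merged into 29 regions. The region chr8:74820573-74822121, of ESC, EpiSC and NSC, counts NSC only through a site of 200 bp outside the interval. ESC alone accounted for 10 of them (34.5%, against 15.6% of all merged regions of the series), ESC with EpiSC for 5 (17.2%, against 5.41%), EpiSC alone for 1 (3.45%, against 10.5%), NSC alone for 2 (6.90%, against 23.4%) and MEF alone for 0 (against 16.6%). Counted by site, 10 of 28 ESC sites (35.7%) were in no other list, against 40% of the whole ESC list. For EpiSC the number was 1 of 17 (5.88%, against 30.7%), for NSC 2 of 13 (15.4%, against 47.8%) and for MEF 0 of 4 (against 43.6%). The region found in all 4 lists, chr8:74842360-74845459, was covered over 3043 bp in ESC and 1774 bp in EpiSC, and over 1058 bp in NSC and 514 bp in MEF, with scores up to 10.6, 2.84, 5.21 and 1.42. It held the widest EpiSC site, chr8:74842411-74843841 (1431 bp), and the widest NSC site, chr8:74842360-74843417. All 4 MEF sites lay wholly inside ESC sites, which covered 73.4% of the interval, against 6.5% of the MEF list. Also among the widest were chr8:74845552-74847882 (2331 bp) and chr8:74864902-74866794 (1893 bp), both of ESC and EpiSC. A region of 2670 bp, chr8:74848793-74851462, was open in ESC alone (percentile 84.2). The somatic cells had nearly all of their bases on the lower side. From 74847000 to its end, the bins of 5 kb were covered over 64.1% to 86.3% in ESC and 6.32% to 29.4% in EpiSC, at most 8.40% in NSC, and MEF had no site. In the bins before that point NSC reached 49.8% (chr8:74832000-74836999) and MEF 12.5% (chr8:74837000-74841999). The longest runs without a site of any list were 1392 bp, chr8:74827959-74829350, 1374 bp, chr8:74822122-74823495, and 982 bp, chr8:74863238-74864219. The sites at the borders were counted whole: an ESC site of 1488 bp and an EpiSC site of 153 bp cross the lower limit, and an ESC site of 1893 bp the upper one; at Klf5 an ESC site of 330 bp crosses the upper limit.

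The surroundings of Klf2 were also dense in ESC. ESC sites covered 26.4% of the bases within 1 Mb on either side, EpiSC 11.9%, NSC 12.2% and MEF 6.22%. Relative to windows of the same length in these flanks, the number of sites at Klf2 was 1.89 times in ESC (1.26 to 2.73), 1.95 times in EpiSC (1.14 to 3.13), 1.26 times in NSC (0.671 to 2.15) and 0.659 times in MEF (0.18 to 1.69). Relative to chromosome 8 the ESC value was 2.42, and 2 of the 44 flanking windows held as many ESC sites. How much of the ESC density at Klf2 belongs to its chromosome was not tested beyond these values.

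**Figure D2:**
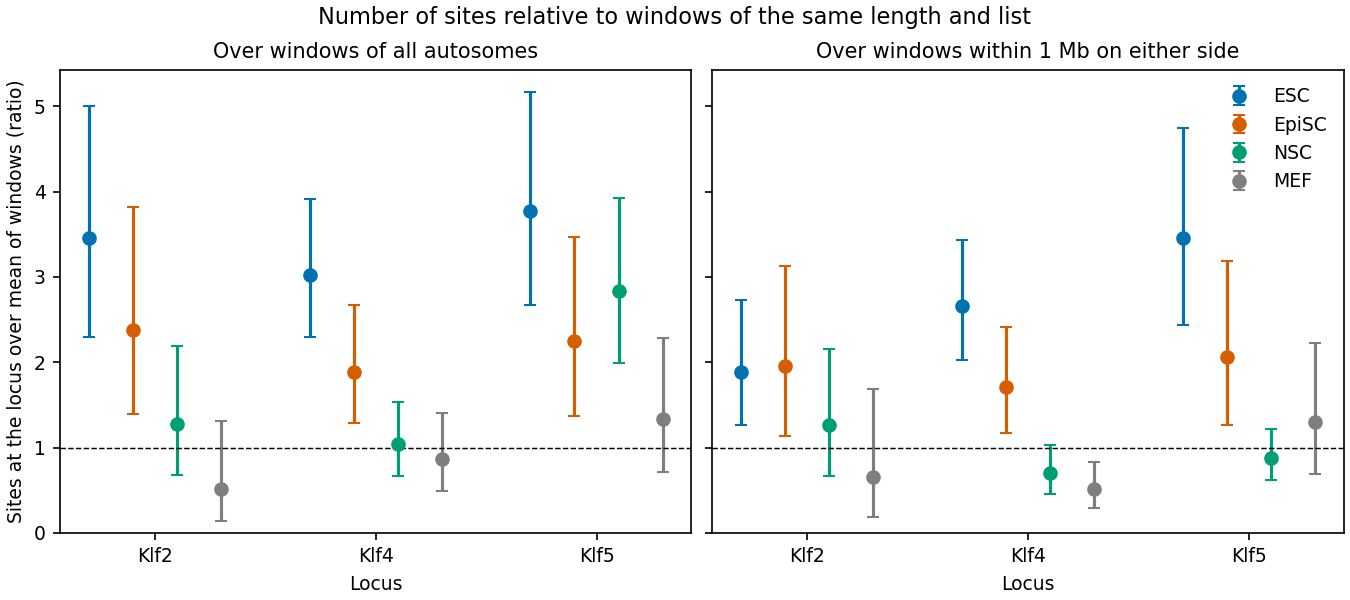
Number of sites at each locus over the mean of windows of the same length in the same list (y axis, ratio), for windows of all autosomes (left) and for windows within 1 Mb on either side (right). Points are the 4 cell types at each locus, bars are exact Poisson 95% intervals of the number, and the dashed line is a ratio of 1. NSC at Klf5 has a ratio of 2.84 over the autosomes and 0.88 over the flanks, whereas ESC at Klf5 has 3.77 and 3.45.

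ESC sites at Klf4 were concentrated in separate parts of the interval, above all at chr4:55475000-55494999. Further parts lay around chr4:55525000-55529999 and at chr4:55540000-55549999. Klf4 lies on the minus strand, so the downstream side has the lower coordinates. Since the gene was not placed on mm9, where that side ends within the interval was not determined. ESC sites covered 31.8% of the interval, EpiSC sites 16.1%, NSC sites 9.11% and MEF sites 8.32%. Of 22987 autosomal windows of this length, 6.16% had as many bases covered in ESC and 11.9% in EpiSC, and 45.7% in NSC and 31.7% in MEF, and 3.82%, 15.2%, 44.3% and 56.1% had as many sites. Open chromatin at Klf4 was thus above most windows in the pluripotent cells and nearer the middle of all windows in NSC and MEF. Within 1 Mb on either side none of 18 windows held as many ESC sites, 3 held as many EpiSC sites, 15 as many NSC sites and all 18 as many MEF sites. Over these flanks the ratio was 2.66 in ESC (2.02 to 3.43) and 1.71 in EpiSC (1.17 to 2.41), and 0.701 in NSC (0.454 to 1.03) and 0.509 in MEF (0.291 to 0.826).

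A part on the lower side was the most open stretch of the locus in ESC. In the 4 neighbouring bins with the most ESC bases, chr4:55475000-55494999, sites covered 63.5% in ESC and 26.9% in EpiSC, and 6.76% in NSC and 6.08% in MEF. These 20 kb are 19.0% of the interval and held 38.1% of the covered bases of ESC, 31.8% of EpiSC, 14.1% of NSC and 13.9% of MEF. They held 16 sites of ESC and 12 of EpiSC, 4 of NSC and 3 of MEF, and 6 of the 11 Klf4 sites of ESC at or above the 95th percentile. Of these 6, chr4:55478339-55479098 stood at percentile 99.7, chr4:55493009-55493662 scored 14.1 (99.1) and chr4:55489268-55491645, the widest ESC site of the locus at 2378 bp, scored 13.1 (98.5). The other three were chr4:55486746-55487674 (12.5), chr4:55476504-55478142 (12.5) and chr4:55483624-55484980 (10.7). Each of the 6 overlapped an EpiSC site. Over the whole ESC list, sites that overlapped EpiSC also ranked higher than the others, with median percentiles of 65.4 and 41.4. The share for sites of this rank over the list was not computed. The site at chr4:55493009-55493662 had its EpiSC counterpart at chr4:55493012-55493665, the EpiSC site of highest score in the interval (7.72, percentile 93.7). The EpiSC site at chr4:55487072-55488090 (6.93, percentile 91.1) overlapped the highest MEF site of this stretch, chr4:55487007-55487352 (4.11, percentile 64.3). The longest ESC stretch with gaps of up to 1 kb ran over 14 sites and 14.8 kb, chr4:55480960-55495714, and was covered over 70.4%; the longest in EpiSC measured 4.45 kb, in NSC 1.48 kb and in MEF 1.83 kb, and those of EpiSC and MEF lay within chr4:55540000-55549999.

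The cluster at chr4:55540000-55549999 was open in EpiSC nearly as much as in ESC, and in part in MEF. In the bin chr4:55545000-55549999 ESC sites covered 50.8%, EpiSC sites 43.8%, NSC sites 12.8% and MEF sites 45.5%, and this was the most covered bin of the interval in EpiSC and in MEF. The region chr4:55544937-55547312 was found in all 4 lists, with scores up to 13.2 in ESC (percentile 98.6) and 6.69 in EpiSC (90.1), and 2.97 in NSC (35.5) and 7.66 in MEF (92.9). Its ESC sites were chr4:55544937-55546495 and chr4:55546704-55547118 (11.6, percentile 97.1), and its MEF sites chr4:55545272-55546020 and chr4:55546318-55547099 (5.51, percentile 80.3) followed the highest MEF site of the interval by score. Next to it chr4:55542379-55544808 was open in ESC over 2358 bp and in EpiSC over 1945 bp (chr4:55542864-55544808, the widest EpiSC site, percentile 43.4) and had no site in NSC or MEF. The bin chr4:55540000-55544999, which holds most of it, was covered over 48.4% in ESC, 39.3% in EpiSC and 0% in NSC and MEF. A second region of all 4 lists, chr4:55526753-55528986, lies in a bin covered over 61% in ESC and 42.8% in EpiSC, and 19% in NSC and 24.8% in MEF. It had scores up to 11.2 in ESC (96.5) and 2.86 in EpiSC (49.3), and 5.00 in NSC (63.3) and 2.97 in MEF (43.3); its ESC site chr4:55527311-55528818 held that score, and its MEF site chr4:55527449-55528552 was the widest of MEF at 1104 bp.

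The third region of all 4 lists at Klf4, chr4:55538481-55539829, ranked higher in NSC and MEF than in the pluripotent cells. Its NSC site, chr4:55538666-55539829, was the highest and widest of the interval in NSC (score 16.3, percentile 98.8, 1164 bp), and its MEF site, chr4:55539217-55539656, was the highest in MEF (8.55, percentile 95.4). ESC had a site of 318 bp there with a score of 4.21 (percentile 61.3), and EpiSC 1 of 381 bp with 1.72 (18.6). The MEF site overlapped the NSC site and neither pluripotent site. At or above the 95th percentile were 11 of 58 sites in ESC (19.0%) and 0 of 32 in EpiSC, and in NSC (1 of 25) and MEF (1 of 16) these sites alone. The highest score of all at Klf4 was that of the ESC site chr4:55463557-55464198 (19.7, percentile 99.9), near the lower limit. It overlapped sites in EpiSC (5.45, percentile 83.0) and NSC (4.99, percentile 63.1). A further ESC site of high score, chr4:55517629-55518523 (11.0, percentile 96.2), was in no other list. The second EpiSC site by score was chr4:55513005-55513701 (7.21, percentile 92.1), which overlapped ESC and NSC. In NSC the second was chr4:55532673-55532761, 89 bp wide and in no other list (8.92, percentile 88.3), and the third chr4:55556534-55556905 (8.19, percentile 85.3), which overlapped EpiSC alone. The longest runs without a site of any list were 3927 bp, chr4:55513702-55517628, 3496 bp, chr4:55560852-55564347, and 3047 bp, chr4:55549399-55552445.

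At Klf4 72 merged regions were found, and 28 of them (38.9%) were of ESC alone, against 15.6% in the series. ESC with EpiSC made up 9 (12.5%, against 5.41%), EpiSC alone 4 (5.56%, against 10.5%), NSC alone 6 (8.33%, against 23.4%) and MEF alone 2 (2.78%, against 16.6%). Among the 5 widest was chr4:55476504-55478170 (1667 bp), in ESC, EpiSC and NSC. The shares held by all 4 lists were close, 3 regions or 4.17% at Klf4 and 4.05% in the series. The ESC sites in no other list, 28 of 58 or 48.3%, were near the 40% of the whole list. For EpiSC the number was 4 of 32 (12.5%, against 30.7%), for NSC 6 of 25 (24.0%, against 47.8%) and for MEF 2 of 16 (12.5%, against 43.6%). Wide sites, of 1 kb or more, made up 9 of 58 in ESC (15.5%, against 10.2% of the list) and 4 of 32 in EpiSC (12.5%, against 6.73%). In NSC they made up 2 of 25 (8%, against 6.71%) and in MEF 1 of 16 (6.25%, against 3.33%). ESC covered more bases than EpiSC in 19 of 21 bins of 5 kb, more than NSC in 17 and more than MEF in 18. The bins in which ESC covered least, chr4:55555000-55559999 with 0% and chr4:55550000-55554999 with 5.60%, lay above that cluster, where NSC covered 24.7% and 7.50%. The most covered bins were chr4:55480000-55484999 in ESC (68.5%) and chr4:55500000-55504999 in NSC (25.5%).

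**Figure D3:**
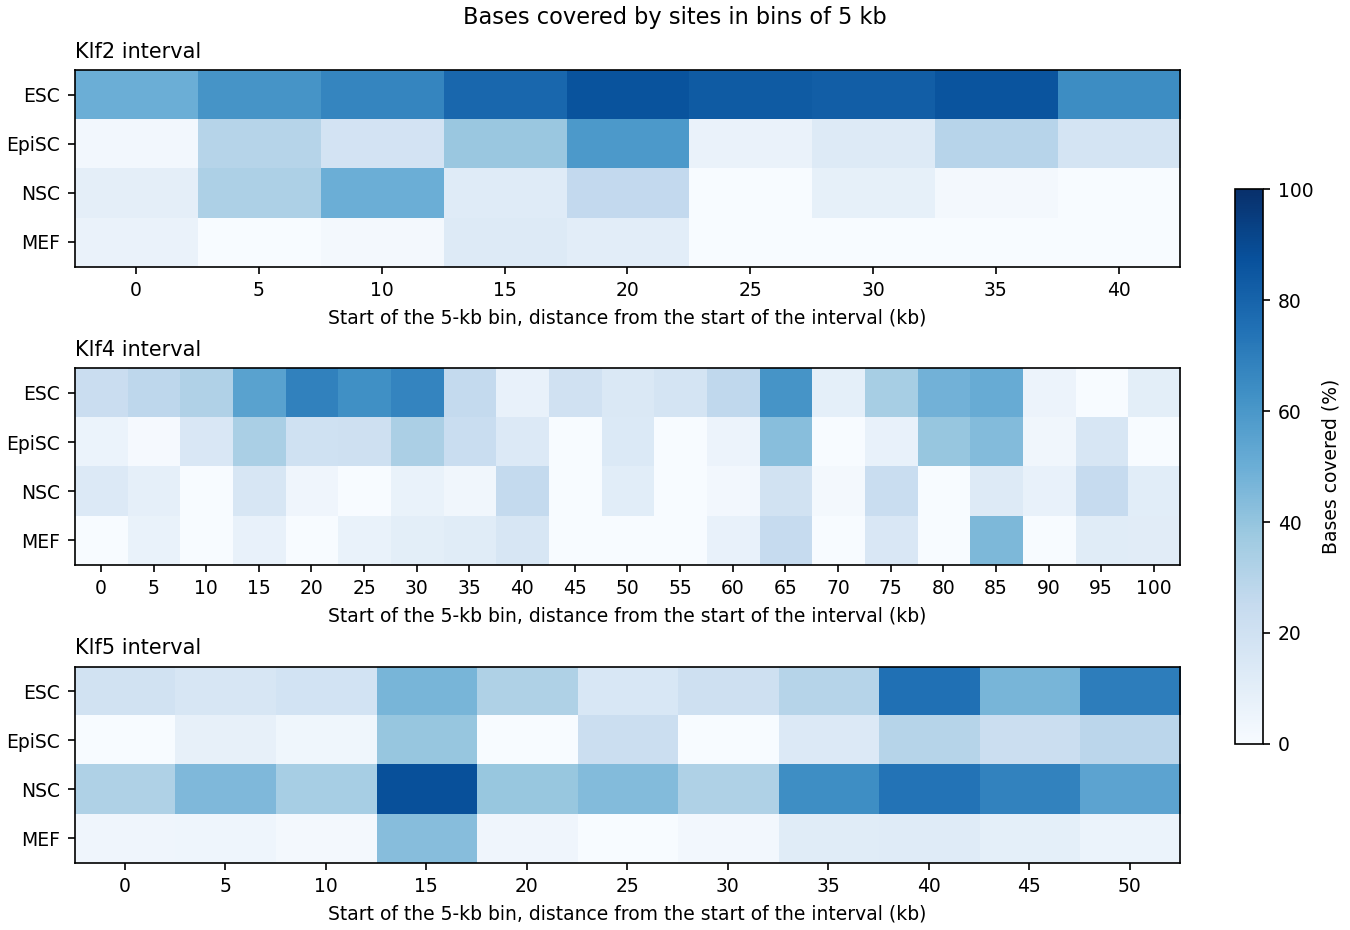
Bases covered by sites (colour, %) in bins of 5 kb along each interval, with a row for each cell type and the distance from the start of the interval on the x axis. At Klf2 ESC is above all other rows in every bin. At Klf4 the bins that start at 15 to 30 kb are covered over 55.1% to 68.5% in ESC, and at Klf5 NSC reaches 87.6% in the bin at 15 kb.

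The Klf5 interval held similar numbers of sites in ESC and NSC, against different surroundings. ESC covered 35.6% of it and EpiSC 15.2%, while NSC covered 52.3% and MEF 8.97%. Among 43886 autosomal windows of this length, 4.95% had as many bases covered in ESC and 14% in EpiSC, and 0.638% in NSC and 27.8% in MEF, and 0.884%, 9.45%, 2.6% and 29.4% had as many sites. Klf5 lies inside a dense domain of NSC sites, which spans chr14:86000001-121000000 when limited by the greatest summed excess of NSC sites in bins of 1 Mb. Of the 636 windows of the length of the Klf5 interval in the domain, 2 held as many ESC sites (0.314%), 18 as many EpiSC sites (2.83%), 299 as many NSC sites (47.0%) and 87 as many MEF sites (13.7%). The mean window of the domain held 4.08 ESC, 5.28 EpiSC, 29.2 NSC and 7.79 MEF sites. These means were 0.404 times those of autosomal windows in ESC, 0.594 times in EpiSC, 2.3 times in NSC and 0.8 times in MEF. Against the domain, Klf5 had 9.31 times as many sites in ESC, 3.79 times in EpiSC, 1.23 times in NSC and 1.67 times in MEF. The domain was limited by its NSC sites and is poor in ESC sites, and over the autosomes the ESC ratio was 3.77. Within 1 Mb on either side ESC sites covered 7.18% of bases, EpiSC 6.01%, NSC 49.7% and MEF 6.32%. Relative to these flanks the number at Klf5 was 3.45 times in ESC (2.44 to 4.74), 2.06 times in EpiSC (1.26 to 3.19), 0.880 times in NSC (0.617 to 1.22) and 1.30 times in MEF (0.690 to 2.22). The number of NSC sites at Klf5 was thus close to that of its flanks, while ESC sites were more numerous than in theirs.

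The ESC sites of highest score at Klf5 overlapped sites of other cell types, as did most ESC sites of the interval. Of its 38 ESC sites 7 were in no other list, and 81.6% overlapped NSC, which covered 52.3% of the bases. The highest ESC site, chr14:99723290-99724508 (17.2, percentile 99.8), overlapped sites in EpiSC (chr14:99723430-99724560, 7.51, percentile 93.1), NSC (chr14:99723298-99725613, 6.07, percentile 73.2) and MEF (chr14:99723820-99724416, 4.34, percentile 67.6). The second, chr14:99697285-99698881 (13.2, percentile 98.6), was the widest ESC site of the interval at 1597 bp. It overlapped the widest sites in EpiSC (chr14:99697462-99698755, 7.61, percentile 93.4), NSC (chr14:99696567-99698891, 14.2, percentile 97.8) and MEF (chr14:99697262-99698325, 7.01, percentile 90.2). The bin that holds it, chr14:99695000-99699999, was the most covered one in EpiSC (39.3%), NSC (87.6%) and MEF (43.0%), and in ESC it had 46.8%. The third ESC site at or above the 95th percentile, chr14:99732117-99732678 (12.7, percentile 98.3), overlapped the EpiSC site of highest score, chr14:99732400-99733253 (8.70, percentile 96.0). The second EpiSC site by score, chr14:99695706-99695853 (8.05, percentile 94.6), overlapped NSC alone.

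Some NSC sites at Klf5 ranked high where ESC had none or only lower-ranked ones. The highest, chr14:99713349-99713866 (14.6, percentile 98.0), overlapped the highest MEF site, chr14:99713685-99713803, of 119 bp (7.46, percentile 92.2), and ESC and EpiSC had none there. The site chr14:99704339-99705076 (11.0, percentile 93.9) was in no other list, and chr14:99717173-99719481 (percentile 95.6) covered 2309 bp where 3 ESC sites covered 1396 bp and scored at most 4.03. The 95th percentile was reached in ESC by 3 of 38 sites (7.89%), in EpiSC by 1 of 20 (5%), in NSC by 3 of 36 (8.33%) and in MEF by 0 of 13, close to the 5% of the lists apart from MEF. Sites of 1 kb or more numbered 4 of 38 in ESC (10.5%, against 10.2% of the list) and 2 of 20 in EpiSC (10%, against 6.73%). They numbered 10 of 36 in NSC (27.8%, against 6.71%) and 1 of 13 in MEF (7.69%, against 3.33%). The median width was 391 bp in ESC and 284 bp in EpiSC, and 638 bp in NSC and 310 bp in MEF. Over the lists it was 373, 338, 333 and 323 bp in the same order.

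The upper part of the Klf5 interval was the most open one in ESC, with 75.3% of the bin chr14:99720000-99724999 covered. In chr14:99715000-99735000, the 4 neighbouring bins with the most ESC bases, sites covered 55.5% in ESC and 23.6% in EpiSC, and 65.2% in NSC and 9.68% in MEF. It held 56.7% of the ESC bases and 56.5% of the EpiSC bases covered at the locus, against 45.3% in NSC, in 36.4% of its length. The longest stretches with gaps of up to 1 kb lay here in both ESC and NSC, at chr14:99717157-99728510 with 12 sites and 11.4 kb in ESC and at chr14:99717173-99728374 with 7 sites and 11.2 kb in NSC. ESC covered more bases than EpiSC in 10 of 11 bins and more than MEF in 11, and fewer than NSC in 9. Among 40 merged regions, 7 were in all 4 lists (17.5%, against 4.05% in the series), 7 in ESC alone (17.5%, against 15.6%), 8 in NSC alone (against 23.4%), 1 in EpiSC alone (2.50%, against 10.5%) and none in MEF alone. Those in all 4 lists were chr14:99686296-99687370, chr14:99696567-99698891, chr14:99699054-99699484, chr14:99717157-99719481, chr14:99723290-99725613, chr14:99725724-99728605 and chr14:99730796-99733998, which at 3203 bp was the widest. With lists of equal length their number fell to 3, and with sites under 200 bp apart merged to 4. ESC and EpiSC without NSC or MEF shared 0 regions at Klf5 (against 5.41% in the series) and 2 with lists of equal length. Counted by site, 7 of 38 ESC sites (18.4%) were in no other list, against 40% of the whole ESC list. For EpiSC the number was 1 of 20 (5%, against 30.7%), for NSC 8 of 36 (22.2%, against 47.8%) and for MEF 0 of 13 (against 43.6%). The longest runs at Klf5 without a site of any list were 2618 bp, chr14:99681728-99684345, 1512 bp, chr14:99690644-99692155, and 1284 bp, chr14:99688319-99689602.

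**Figure D4:**
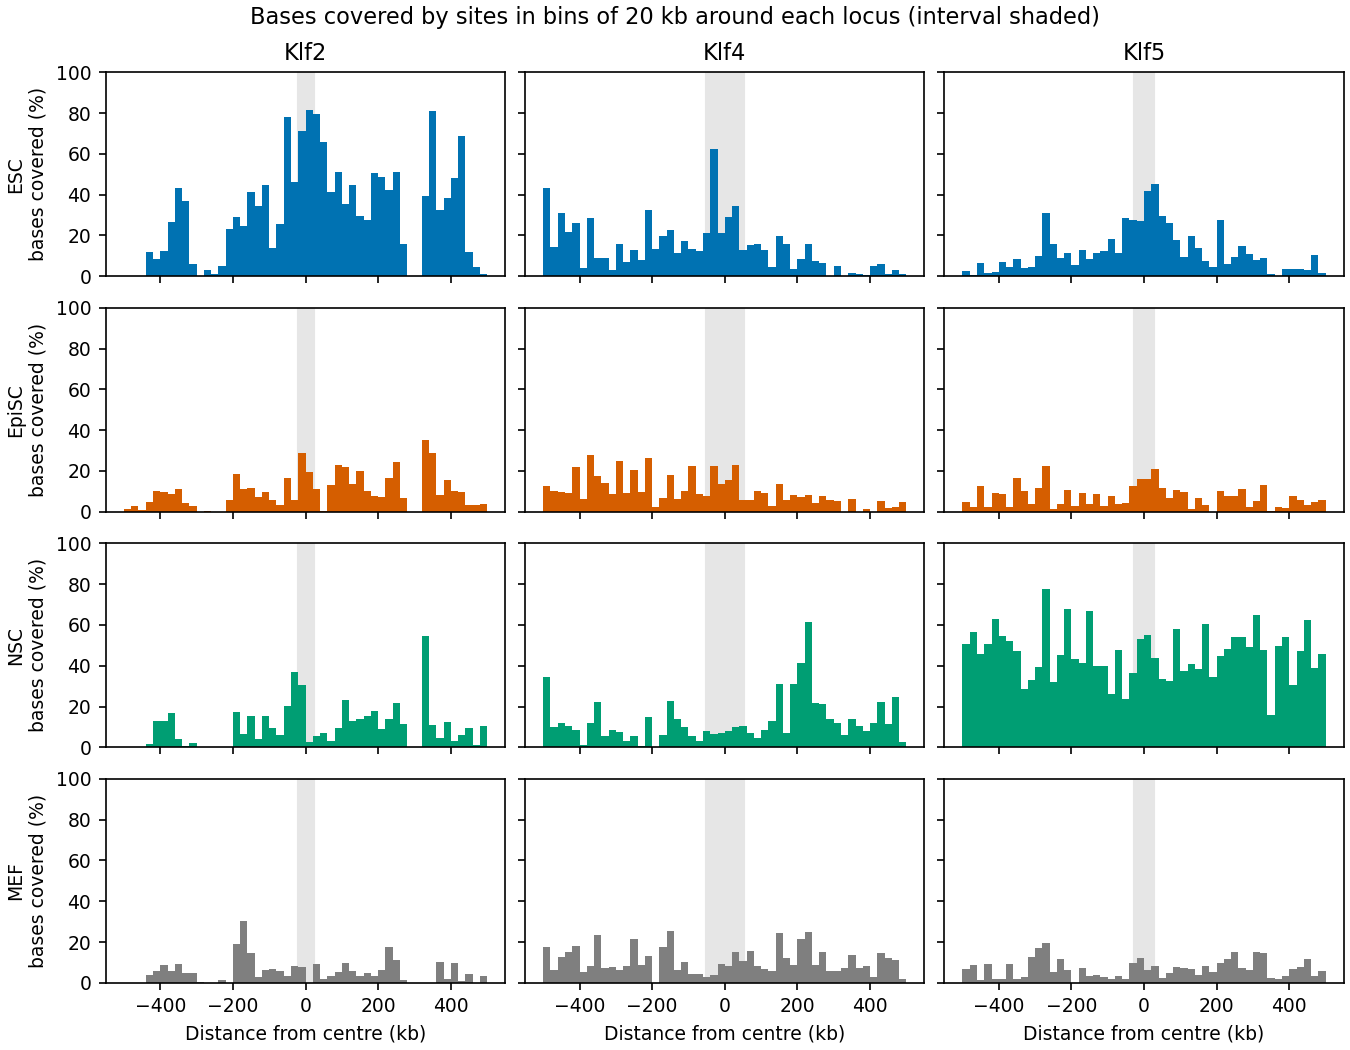
Bases covered by sites (y axis, %) in bins of 20 kb up to 500 kb on either side of the centre of each interval (x axis, kb), with a row for each cell type and a column for each locus; the interval is shaded. Bins at the borders lie partly outside the shading. ESC covers 35.6% of the Klf5 interval, above every bin outside, and NSC at Klf5 is high throughout, with 52.3% of the interval and a median of 46.4% in the bins outside.

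Profiles over 500 kb on either side placed each locus in its surroundings, with the coverage of the interval itself set beside bins of 20 kb that do not touch it. At Klf5 the interval was covered over 35.6% in ESC, against a median of 8.64% in the 46 bins outside, and none of these bins exceeded the interval. The EpiSC values were 15.2% against 5.66%, with 2 bins above, those of NSC 52.3% against 46.4%, with 14 above, and those of MEF 8.97% against 6.21%, with 12 above. At Klf4, with 44 bins outside, they were 31.8% against 10.3% in ESC (2 above) and 16.1% against 8.23% in EpiSC (8 above), and 9.11% against 10.4% in NSC (25 above) and 8.32% against 8.75% in MEF (25 above). At Klf2, with 46 bins, they were 73.4% against 28.2% in ESC (2 above) and 23.9% against 8.09% in EpiSC (3 above), and 15.9% against 8.10% in NSC (7 above) and 3.55% against 3.65% in MEF (23 above). Coverage of the intervals was thus above the median of the bins outside in ESC and EpiSC at each locus, and below it in MEF at Klf2 and in NSC and MEF at Klf4. ESC reached 78.3% in chr8:74784000-74803999 and 80.8% in chr8:75184000-75203999 as well, while the 2 bins between chr8:75124000 and 75163999 held no site of any list. High ESC coverage was therefore not confined to the Klf2 interval.

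The lists were then compared site by site, beside the same share over all sites of each list. Of the EpiSC sites, 16 of 17 at Klf2 (94.1%, exact 95% interval 71.3 to 99.9), 24 of 32 at Klf4 (75.0%, 56.6 to 88.5) and 14 of 20 at Klf5 (70.0%, 45.7 to 88.1) overlapped an ESC site, against 45.0% of the EpiSC list. In the other direction 13 of 28 ESC sites at Klf2 (46.4%, 27.5 to 66.1), 21 of 58 at Klf4 (36.2%, 24.0 to 49.9) and 15 of 38 at Klf5 (39.5%, 24.0 to 56.6) overlapped an EpiSC site, against 40.1% of the ESC list. Most EpiSC sites of these loci thus overlapped an ESC site, and the share of ESC sites open in EpiSC was close to that of the list. ESC covered 73.4% of the bases at Klf2, 31.8% at Klf4 and 35.6% at Klf5, and these shares were not corrected for it. Over the 3 loci 25 of 69 EpiSC sites (36.2%) lay wholly inside an ESC site, against 12.1% of the EpiSC list, and 6 of 124 ESC sites (4.84%) wholly inside an EpiSC site, against 10.1%.

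Somatic sites of these loci overlapped ESC sites more often than those of their lists. ESC sites covered 73.4% of the bases at Klf2, 31.8% at Klf4 and 35.6% at Klf5, against 9.36% of the autosomes. The shares below were not corrected for this coverage. NSC sites overlapped an ESC site in 11 of 13 cases at Klf2 (84.6%, 54.6 to 98.1), 13 of 25 at Klf4 (52.0%, 31.3 to 72.2) and 23 of 36 at Klf5 (63.9%, 46.2 to 79.2), against 25.3% of the list. The Klf4 share was 47.1% with lists of equal length, 40% with an overlap of 50% of the shorter site and 35.7% in the highest-scoring 50%, and the Klf5 share was 36.4% in the last of these. By bases, 84.2% of NSC sites at Klf2, 38.1% at Klf4 and 46.9% at Klf5 lay in ESC sites. Wholly inside an ESC site were 6 of 13, 6 of 25 and 1 of 36 NSC sites, against 5.31% of the NSC list. The Klf5 share, 2.78%, was thus below that of the list. MEF sites overlapped an ESC site in 4 of 4 cases at Klf2 (39.8 to 100), 12 of 16 at Klf4 (75.0%, 47.6 to 92.7) and 9 of 13 at Klf5 (69.2%, 38.6 to 90.9), against 25.0% of the list. By bases, 100% of MEF sites at Klf2, 60.9% at Klf4 and 59.8% at Klf5 lay in ESC sites. Of the MEF sites, 4 of 4, 5 of 16 and 1 of 13 lay wholly inside an ESC site, against 6.5% of the MEF list. The Klf5 share, 7.69%, was close to that of the list. ESC sites overlapped NSC in 11 of 28 cases at Klf2 (39.3%, 21.5 to 59.4), 12 of 58 at Klf4 (20.7%, 11.2 to 33.4) and 31 of 38 at Klf5 (81.6%, 65.7 to 92.3), against 33.1% of the list. The Klf5 share stands beside the 52.3% of bases that NSC covered there. ESC sites overlapped MEF in 4 of 28, 13 of 58 and 9 of 38 cases (14.3%, 22.4% and 23.7%), against 24.4%. All 13 MEF sites at Klf5 overlapped an NSC site, as did 3 of 4 at Klf2 and 8 of 16 at Klf4, against 40.1% of the MEF list.

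**Figure D5:**
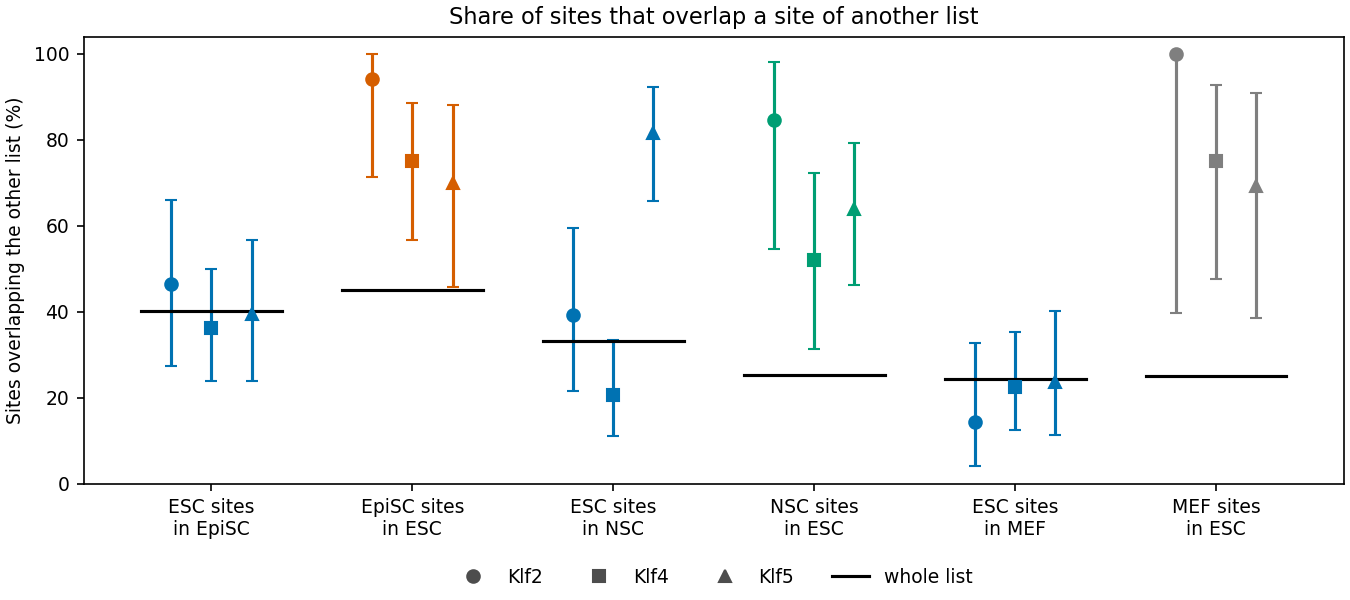
Share of sites of the first list that overlap a site of the second (y axis, %), at Klf2 (circles), Klf4 (squares) and Klf5 (triangles). Bars are exact 95% intervals and the black line is the share over the whole first list. Shares were not corrected for the bases that the second list covered at each locus. Sites of EpiSC, NSC and MEF overlapped ESC in 52.0% to 100% of cases, above the lines at 45.0%, 25.3% and 25.0%, and ESC in NSC stands apart at Klf5 with 81.6%.

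ESC sites that overlapped an EpiSC site ranked higher and were wider than the other ESC sites of the same locus. An overlap needed 1 bp, which a wider site meets more easily, and the widths were not corrected for this. At Klf4 the median percentile of the score was 93.7 for the 21 that overlapped EpiSC and 51.4 for the other 37, with median widths of 654 and 344 bp. At Klf5 it was 76.9 for 15 sites and 47.2 for 23, with 500 and 321 bp. At Klf2 it was 93.4 for 13 sites and 84.2 for 15, with 1190 and 591 bp. Over the ESC list the medians were 65.4 and 41.4, so that the difference at Klf4 was larger than that of the list and at Klf2 smaller. For ESC sites with and without an NSC overlap at Klf5 the medians were 50 and 48.4, against 62.0 and 44.6 in the list. By shared bases, ESC and EpiSC had 29.4% of the bases open in either in common at Klf2, 31.8% at Klf4 and 23.8% at Klf5. ESC and NSC shared 17.7%, 9.28% and 38.7% at the 3 loci in the same order, and ESC and MEF 4.83%, 14.5% and 13.7%. Klf5 was the locus at which ESC shared more bases with NSC than with EpiSC. There NSC covered 52.3% of the bases and EpiSC 15.2%, and the shared bases were not corrected for this coverage. Of the bases covered at Klf5, 64% of those of EpiSC and 46.9% of those of NSC lay in ESC sites.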

How the data were processed

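FAIRE-seq libraries were sequenced on an Illumina Genome Analyzer after PCR and gel selection, per the labels' protocols; CASAVA 1.8 and build mm9 are named in the submitters' processing notes. Each of the 4 deposited lists gives the position of every site, a score made by the authors, and a display value, which equals 100 times that score, with a cap at 1000, to within 1. Not given in the sources used here are the caller's settings, the use of the genomic control and the unit of the score; 6 samples, which have no list here, were not analysed.

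Coordinates are printed 1-based. Scores were ranked within each list, overlaps need 1 bp, and windows of the length of each interval were tiled over the 19 autosomes. Exact intervals cover counting error only. Sites named are the 3 of highest score per locus and cell type, the widest, those at or above the 95th percentile, the merged regions of all 4 lists, the 5 widest regions, the 3 longest runs without a site and the most covered bins; further sites, neighbouring genes, the stretches, the flanks, the NSC domain and the densest bins were chosen after their values were seen. The loci and lists were chosen with earlier results of these data known. Alternatives were the highest-scoring 50%, lists of equal length (387312 sites), other limits and backgrounds, a 50% overlap and merging under 200 bp. Tools were scipy 1.17.1, pandas 2.3.3, numpy 2.4.6 and, for drawing, matplotlib 3.10.9 under Python 3.11.15; overlaps and merging were tested on simulated data and gave counts identical to bedtools 2.31.1. The cell types were not checked against marker loci, since gene positions on mm9 were not used.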

Additional observations from a re-analysis of the deposited data

How the results depend on the processing

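Windows within 1 Mb on either side were an alternative chosen with the data in view, and all others were planned. Among 300 alternative values 53 moved; the remaining 247 kept inside the 95% interval (densities and shares) or inside a factor of 1.5 (covered bases, numbers of regions). No paired analysis was possible because a single list per cell type leaves no replicates, which also means that none could be left out. Depth is unknown, and at 4 to 58 sites per locus and list the intervals are wide.

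The relative density of ESC at Klf2 was 6.41 in the highest-scoring 50% and 1.89 over the flanks, that of MEF at Klf4 was 0.429 in the highest-scoring 50%, and that of NSC at Klf5 was 0.88 over the flanks. In the highest-scoring 50%, where fewer sites are left by construction, overlap shares at Klf2 were 26.9% for ESC in EpiSC, 100% for EpiSC in ESC, 3.85% for ESC in MEF, 12.5% for EpiSC in NSC, 14.3% for NSC in EpiSC, 100% for MEF in NSC and 0% between EpiSC and MEF in both directions. At Klf4 they were 8.11% for ESC in MEF, 11.8% for EpiSC in NSC, 14.3% for NSC in EpiSC, 7.14% for NSC in MEF and 75.0% for MEF in EpiSC. At Klf5 they were 38.5% for EpiSC in ESC, 61.1% for ESC in NSC, 36.4% for NSC in ESC, 11.1% for ESC in MEF, 61.5% for EpiSC in NSC and 13.6% for NSC in MEF. Covered bases in this setting were 11.7% for EpiSC and 1.42% for MEF at Klf2, 8.98% for EpiSC, 5.42% for NSC and 2.21% for MEF at Klf4, and 3.47% for MEF at Klf5.

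With lists of equal length ESC in NSC was 21.4% at Klf2 and 64.7% at Klf5, EpiSC and MEF shared 0% of sites at Klf2 in both directions, and MEF covered 1.65% of Klf2. Numbers of regions then were 1 for NSC alone, 8 for ESC with EpiSC and 0 for all 4 lists at Klf2; 7 for EpiSC alone, 1 for MEF alone and 0 for NSC with MEF at Klf4; and 1 for MEF alone, 2 for ESC with EpiSC and 3 for all 4 lists at Klf5. Merging sites under 200 bp apart, which joins regions by construction, left 16 regions at Klf2, with 4 of ESC alone, 0 of EpiSC alone, 0 of NSC alone, 2 of ESC with EpiSC and 4 of all lists; at Klf4 it left 17 of ESC alone, 1 of MEF alone and 2 of ESC with EpiSC, and at Klf5 4 of all lists. Apart from these constructions the cause was not tested.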

Other observations

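NSC had open chromatin on the upper side of Klf4, outside its interval. The bin chr4:55732500-55752499 was covered over 15.8% in ESC and 8.07% in EpiSC, and 61.3% in NSC and 24.9% in MEF, and its neighbour chr4:55712500-55732499 over 8.34%, 7.17%, 41.4% and 21.4% in the same order. The highest value of NSC in the 4 bins of 20 kb wholly inside the Klf4 interval was 9.72%.

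EpiSC had a group of 3 sites of their own at chr4:55469952-55471255, with scores from 1.42 to 3.25 (percentiles 3.92 to 56.6); the next ESC site begins at chr4:55471261-55471718.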
